A study of Mus musculus with 32 samples.

Results

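The comparison described here asks which genes respond to 4 h of interferon-γ (IFN-γ) in melanoma cells that receive Activin-A at the same time. It rests on 8 of the 32 wells of the series, 4 that received both factors and 4 that received Activin-A alone, chosen by their labels and not by any measured value. All wells of the series held YUMM3.3, a mouse melanoma cell line with a mutated Braf kinase. IFN-γ was given at 20 ng/ml and Activin-A at 40 ng/ml in 6-well plates, in wells labelled R1 to R4. These are the doses of the labels, and some legends of the study give a different dose of Activin-A. The series has 8 groups of 4 wells in all: untreated (NT), Activin-A (ActA), IFN-γ and both factors, each at 4 h and at 12 h. They stand for 1 cell line, and the labels do not say whether the wells of a group came from separate cultures, so p-values measure the spread between wells only. RNA was profiled by BRB-seq, in which barcoded libraries from the 3′ ends of transcripts are pooled.

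IFN-γ is the cytokine through which T cells and natural killer cells alert other cells to infection or malignancy. It binds the receptor subunits IFNGR1 and IFNGR2, whose kinases JAK1 and JAK2 activate transcription factors of the STAT family. These bind gamma-activated sites (GAS), and IRF1, itself an early target, acts on interferon-stimulated response elements (ISRE) in a later wave that includes antigen presentation and cell-autonomous defence. Activin-A, a member of the TGF-β family, signals through SMAD2 and SMAD3, induces feedback genes such as Smad7, and is neutralised by follistatin.

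Totals in the 8 wells ran from 654539 to 1455074 counts, so that 3 counts correspond to 2.06 to 4.58 counts per 1000000 (CPM). All levels below are CPM with library sizes scaled by TMM. The highest total was that of Activin-A replicate 1, which stood apart: its counts differed from those of the other Activin-A wells by a chi-square of 2.45 to 2.89 per gene, against 1.16 to 1.54 in all other pairs of wells within groups. In this well 2.14% of counts came from 7 mitochondrial genes, against 1.39% to 1.49% in the other Activin-A wells and 1.18% to 1.42% with both factors. Its part in the results was not tested beyond leaving it out. The melanocyte list summed to 488 to 569 CPM with Activin-A and 496 to 609 CPM with both factors. None of its 9 tested genes passed the test described below, beside 6.07% of all genes tested. Pmel and Dct were present at means of 121 and 73.5 CPM with Activin-A, while Mitf stood at only 6.57 CPM and Kit was not in the table. Ednrb, Pax3, Mc1r and Oca2 of the same list had too few counts to be tested. Summed markers of macrophages reached at most 19.9 CPM, those of fibroblasts 19.9 CPM, those of T and B cells 6.12 CPM and those of keratinocytes 15.3 CPM in any of the 8 wells. No endothelial marker was in the table.

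Of 9137 genes tested, 555 (6.07%) differed between both factors and Activin-A at an adjusted p under 0.05 (quasi-likelihood test of edgeR, adjusted by Benjamini-Hochberg over all genes tested). Of these DEGs 403 rose (4.41% of genes tested) and 152 fell (1.66%). The response was uneven in size as well as in number. Among the risen genes 187 had a log2 fold change of at least 1, 86 of at least 2, 40 of at least 3 and 8 of at least 5, whereas 9 fallen genes reached -1 and none reached -2. The median log2 fold change was 0.90 over the risen genes, -0.50 over the fallen ones and -0.01 over all genes tested, with a median SE of 0.17. Each SE of a log2 fold change, here and below, was worked back from the test statistic. It is approximate and can be too small, above all for large changes. The wells of both groups did not overlap for 926 genes tested (10.1%), among them 368 of the risen and 120 of the fallen genes. Counts in the risen genes took 3.91% to 4.05% of each Activin-A library and 7.32% to 7.38% of each library with both factors. Leaving out Activin-A replicate 1 gave 388 risen and 127 fallen genes, of which 349 and 91 were among those above. Fallen genes numbered 100 without replicate 2 of both factors, 97 without replicate 4 of both factors and 61 under DESeq2, whose split was 319 risen to 61 fallen.

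**Figure D1:**
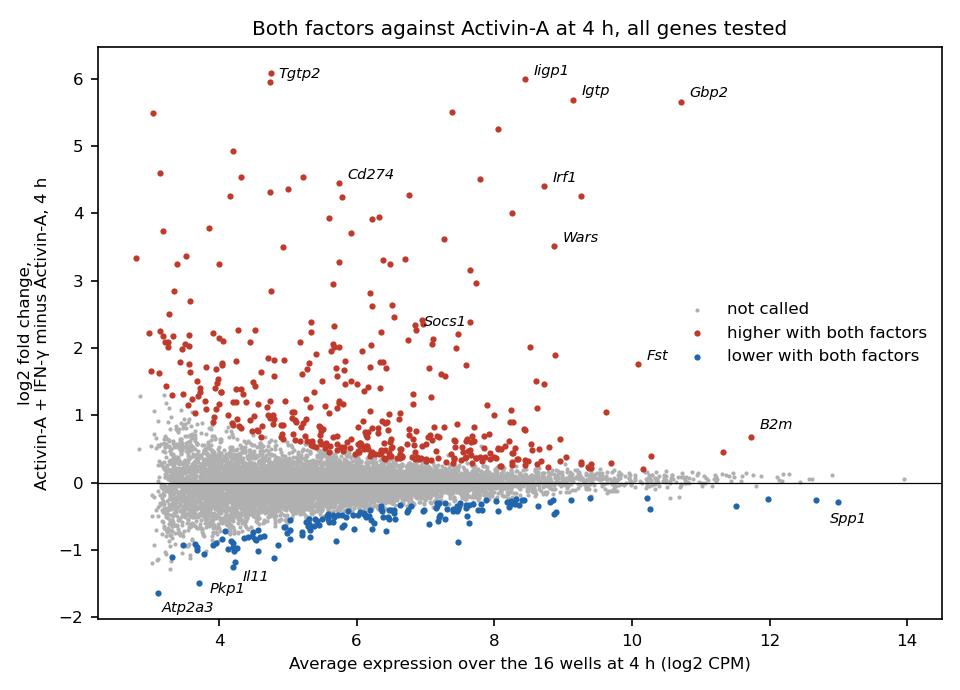
Log2 fold change (both factors minus Activin-A, 4 h, vertical axis) against average expression over the 16 wells at 4 h (log2 CPM, horizontal axis) for each of 9137 genes, with 403 higher genes in red, 152 lower genes in blue and genes not called in grey. The red points reach beyond 5 for 8 genes, while no blue point reaches -2.

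Among called genes with at least 10 counts on average and wells that did not overlap, 7 of the 12 that rose most belong to the lists of GTPases that act in cell-autonomous defence. Some of these genes reach that average only through the wells with both factors. Guanylate-binding proteins (GBPs) and immunity-related GTPases (IRGs) are enzymes that coat and break the vacuoles of intracellular pathogens. All 5 GBP genes tested rose, with a median log2 fold change of 4.93, as did 6 of 7 IRG genes, with a median of 4.27. These counts stand beside 4.41% of all genes tested. Gbp2b, Gbp5, Gbp8 and Gbp9 were in the table but below the filter on low counts. In these and later lists, members such as Gbp6, Tgtp2 and Apol6 passed that filter only through wells with IFN-γ. A rise thus helped to decide which members were tested, and the counts and medians carry this limit. Over all genes tested the median was -0.01. Gbp2 stood at 52.1, 62.7, 71.3 and 60.9 CPM in the Activin-A wells and at 3153, 3074, 3061 and 3110.2 CPM with both factors. Its log2 fold change of 5.66 ± 0.08 (SE), 50.6-fold, had the lowest adjusted p of all genes tested (3.41e-52). The wells with both factors lay close together and far above all Activin-A wells. Igtp (Irgm3), a regulatory IRG, went from 14.5, 32.1, 20.2 and 21.8 CPM to 1132, 1035, 1046 and 1062 CPM. Iigp1 (Irga6), an effector IRG, went from 14.5, 9.18, 10.6 and 6.37 CPM to 690.0, 702, 639.9 and 723 CPM. Neither gene had overlapping wells, and their log2 fold changes were 5.69 ± 0.11 (adjusted p = 3.40e-45) and 6.00 ± 0.12 (adjusted p = 1.30e-43). Irgm1, another regulatory IRG, rose 19.2-fold from 61.7 ± 6.78 to 1178 ± 47.1 CPM (SD, n = 4) with an adjusted p of 1.14e-44. Irgq, an atypical member of the family, was the exception at -0.77 ± 0.28 (adjusted p = 0.0925).

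Some of these genes had almost no counts without IFN-γ, among them Apol6, an apolipoprotein L family member, and Tgtp2, a T-cell-specific GTPase of the IRG family. Apol6 had 0, 0, 1 and 2 counts in the Activin-A wells and 47, 61, 63 and 61 with both factors, a pooled ratio of 76.9 (95% counting interval 26.0 to 376). Tgtp2 had 1, 0, 2 and 0 counts against 55, 50, 48 and 58, a pooled ratio of 69.9 (95% counting interval 23.6 to 342). These exact intervals cover counting error only, and they are wide because the control counts are few. Gbp6 had 1, 1, 1 and 1 counts in the Activin-A wells and a pooled ratio of 33.3 (95% counting interval 12.7 to 124), and Gm12185, an IRG-related gene, 1, 0, 2 and 3 counts and a ratio of 24.4 (95% counting interval 10.9 to 67.5). In all, 12 risen genes had 3 counts or fewer in each Activin-A well, and each had at least 1 count in 1 of them. Gbp4, the fifth GBP tested, rose by 1.44 ± 0.41 (adjusted p = 0.0182) and missed the threshold under DESeq2 and in 5 of 8 fits without 1 well. The remaining genes among the 12 highest were Gbp7 at 5.51 ± 0.16, the IRG-related Ifi47 at 5.26 ± 0.13, Il18bp, a secreted inhibitor of interleukin-18, at 4.54 ± 0.26, Gbp3 at 4.51 ± 0.13 and Cd274 at 4.45 ± 0.21, each with an adjusted p of 9.45e-22 or lower. Tgtp1 and Tgtp2, like the GBP, Ifi200, Oas and Apol9 families, have close copies that can share reads, so the split between copies is uncertain, and whether reads were counted by strand is not given in the sources used here.

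Letters of the binding sites of STAT and IRF factors were looked for in the promoters of these genes, as a description that shows no binding. RefSeq windows of 250 bases before to 50 bases after a start (build GRCm38.p6, not the GRCm39 of the counts) were searched on both strands for TTCNNNGAA, the GAS core, and for GAAANNGAAA or its reverse complement TTTCNNTTTC, the ISRE core. Matches of both kinds may share bases. Of all 32851 windows in the table, 8.30% held the first and 3.44% the other. Windows were found for 9 of the 12 highest genes, and not for Gbp6, Iigp1 and Apol6. Igtp, Gm12185 and Tgtp2 held both motifs in the same order, 2 bases apart, in the stretches below, where the capitals mark the motifs and the sequence is that of the coding strand.
Igtp, chr11:58199503-58199539, plus strand: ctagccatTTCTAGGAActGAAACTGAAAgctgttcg
Gm12185, chr11:48927240-48927276, minus strand: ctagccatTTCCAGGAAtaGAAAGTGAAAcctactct
Tgtp2, chr11:49064265-49064301, minus strand: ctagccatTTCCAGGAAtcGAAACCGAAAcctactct
The last motif base lay 25, 66 and 61 bases before the start in these 3 windows. Windows of Gbp2, Gbp3 and Gbp7 held the ISRE letters in reverse complement. The match lay 50 bases before the start in Gbp2. In 1 of 2 windows of Gbp3, 2 overlapping matches ended 30 bases before it. Gbp7 had the match at 44 bases, and also had GAS matches at 98 and 79 bases. The promoter of Gbp4, outside the 12 highest genes, is not described.
Gbp2, chr3:142620596-142620621, plus strand: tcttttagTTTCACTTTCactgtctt
Gbp3, chr3:142559991-142560022, plus strand: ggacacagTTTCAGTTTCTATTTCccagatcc
Gbp7, chr3:142530222-142530300, plus strand: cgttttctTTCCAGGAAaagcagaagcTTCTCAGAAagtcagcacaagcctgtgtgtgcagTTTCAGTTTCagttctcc
The windows of Cd274, Il18bp and Ifi47 held neither set of letters. Of all risen genes 319 (79.2%) had a window. The matches are given for single promoters, and no share of promoters with a match is drawn for the 12 or for all risen genes.

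Upstream of these genes, 3 of 12 tested receptor and JAK-STAT genes rose and none fell, beside 4.41% and 1.66% of all genes tested. In the list of interferon regulatory factors (IRFs), their binding proteins and the Batf partners 5 of 11 genes rose. Stat2, a signal transducer of the interferon receptors, stood at 21.8, 10.7, 12.3 and 19.1 CPM with Activin-A and 76.0, 76.4, 94.7 and 94.7 CPM with both factors (log2 fold change 2.33 ± 0.18, adjusted p = 3.10e-16). Its wells did not overlap. Stat3, which relays cytokines of the interleukin-6 family, rose by 2.06 ± 0.12 on the log2 scale. The receptor and its kinases gave no call. Ifngr1 stood at 59.4, 62.7, 55.4 and 54.6 CPM with Activin-A and 45.4, 50.7, 45.0 and 41.5 CPM with both factors (log2 fold change -0.34 ± 0.15, adjusted p = 0.216). Ifngr2 was at -0.31 ± 0.11 (adjusted p = 0.0992), and passed the test without Activin-A replicate 1 (adjusted p = 0.00944) and without replicate 4 of both factors (adjusted p = 0.0311). Jak1 was at 0.18 ± 0.12 and Jak2 at 0.44 ± 0.17, with adjusted p of 0.526 and 0.140.

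Irf1, the transcription factor that carries the IFN-γ signal to secondary targets, rose from 34.3, 36.7, 38.7 and 45.5 CPM to 755, 862, 865 and 796 CPM (log2 fold change 4.40 ± 0.09, adjusted p = 3.03e-43). Every well with both factors thus lay far above every Activin-A well, 21.2-fold in the fit. Batf2, a partner of Irf1, rose by 3.5 ± 0.26, Irf7, the regulator of type I interferon genes, by 1.77 ± 0.18, Irf9, the DNA-binding partner of STAT2, by 1.47 ± 0.15 and Irf2, an antagonist of Irf1, by 0.58 ± 0.15 on the log2 scale. The call of Irf2 was lost without Activin-A replicate 3 (adjusted p = 0.100), without replicate 1 of both factors (adjusted p = 0.0667) and under DESeq2 (adjusted p = 0.0587). Irf8, best known from myeloid cells, gave 0.13 ± 0.13 (adjusted p = 0.724), and Irf3 -0.12 ± 0.14 (adjusted p = 0.771). The upstream window of Irf1 held a GAS match 82 bases before its start, that of Stat2 an ISRE match at 213 bases, that of Socs1 overlapping ISRE matches, the nearer at 68 bases, that of Cxcl10 an ISRE match at 204 bases and that of Socs3 a GAS match at 146 bases. The windows of Irf7 and Irf9 and the other window of Irf1 held neither set of letters. No window was found for Nlrc5, Tmem173 and Ccn2, whose levels are given below.
Irf1, chr11:53769916-53769940, plus strand: agcctgatTTCCCCGAAatgatgag
Stat2, chr10:128270268-128270293, plus strand: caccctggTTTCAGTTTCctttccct
Socs1, chr16:10785596-10785627, minus strand: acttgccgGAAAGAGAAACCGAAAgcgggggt
Cxcl10, chr5:92349085-92349110, minus strand: acgctttgGAAAGTGAAActtacctc

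Of 17 tested genes that restrain cytokine signals 3 rose and 1 fell, beside 4.41% and 1.66% of all genes tested. Socs1, which blocks JAK kinases, went from 37.0, 39.8, 36.1 and 38.2 CPM to 183, 177, 173 and 189 CPM (log2 fold change 2.26 ± 0.11, adjusted p = 1.66e-24). Socs3, a further inhibitor of cytokine receptors, rose by 1.41 ± 0.13 and Usp18, which removes ISG15 and restrains type I interferon receptors, by 0.82 ± 0.16. Socs2, which restrains growth hormone signalling, went the other way, from 32.3, 27.5, 28.2 and 28.2 CPM to 12.7, 14.6, 13.4 and 17.1 CPM (log2 fold change -1.01 ± 0.21, adjusted p = 5.04e-04). Every well with both factors lay above every Activin-A well for Socs1 and below for Socs2. The remaining 13 genes, among them the phosphatases Ptpn1, Ptpn2 and Ptpn11 and the PIAS genes, were not called.

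**Figure D2:**
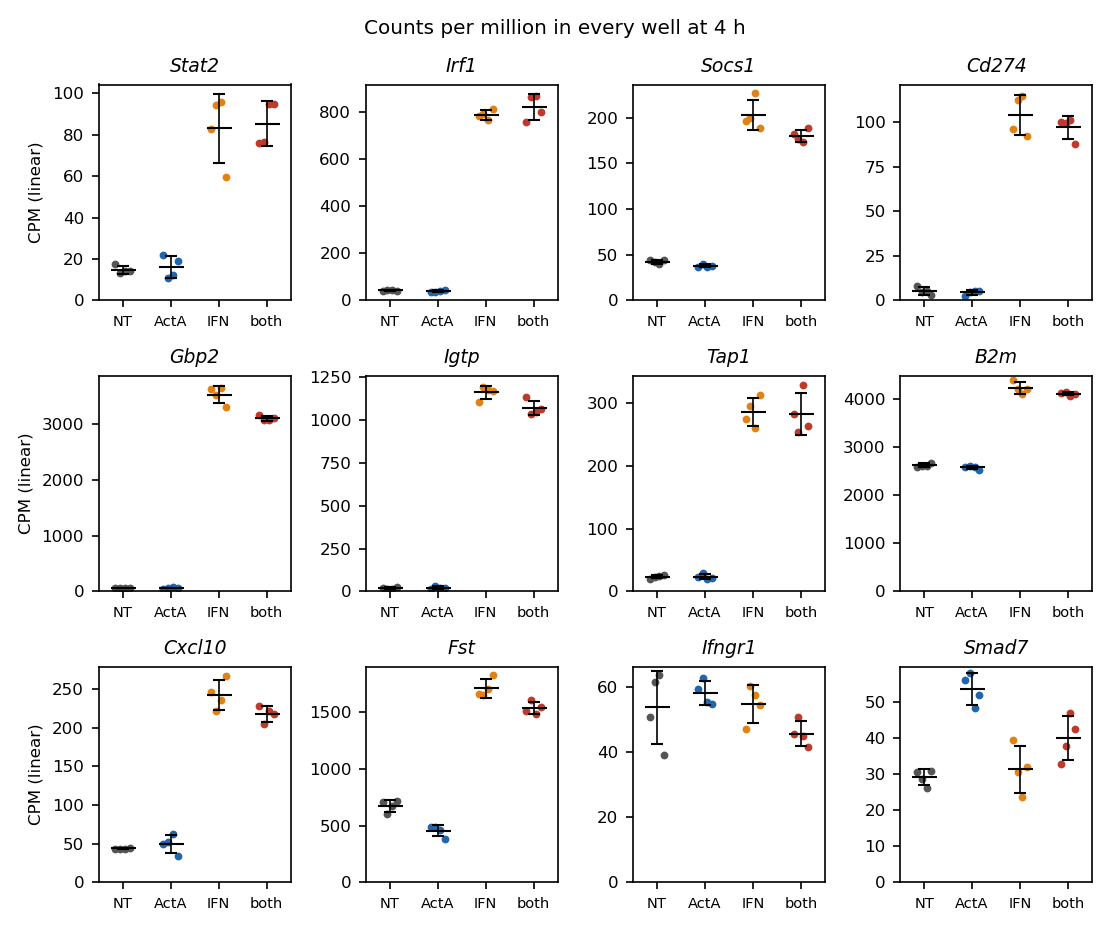
CPM on a linear axis in each of the 16 wells at 4 h for 12 genes (points), in untreated wells (NT), Activin-A (ActA), IFN-γ (IFN) and both factors (both), with black lines for the mean and SD of 4 wells. In the panels from Stat2 to Fst all wells with both factors lie above all wells with Activin-A alone, while those of Ifngr1 and Smad7 lie below them without passing the test.

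The machinery that loads peptides on MHC class I rose as well. Of 16 tested genes 13 rose and none fell, beside 4.41% and 1.66% of all genes tested, with a median log2 fold change of 1.88. Tap1, which pumps peptides into the endoplasmic reticulum, went from 23.1, 29.1, 20.2 and 21.8 CPM to 284, 254, 329 and 264 CPM (log2 fold change 3.61 ± 0.13, adjusted p = 3.41e-32). Its partner Tap2 rose by 3.28 ± 0.19, and the editing factors Tapbp and Tapbpl by 1.74 ± 0.10 and 4.31 ± 0.31. Nlrc5, the transactivator of class I genes, rose 15.3-fold, from 5.97 ± 1.48 to 95.5 ± 10.5 CPM (SD, n = 4). B2m and the classical heavy chains moved less at this time. B2m, the invariant light chain, went from 2597, 2619.9, 2586 and 2524 CPM to 4137, 4146, 4072 and 4120.4 CPM, 1.60-fold (log2 fold change 0.67 ± 0.05, adjusted p = 2.80e-17). H2-K1 and H2-D1 rose 1.86-fold and 1.74-fold, whereas the non-classical H2-T23 rose 7.04-fold. The chaperones Calr (0.14 ± 0.08), Canx (0.12 ± 0.06) and Pdia3 (0.00 ± 0.06), which serve all glycoproteins, were not called.

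Among proteasome genes 6 of 11 rose, beside 4.41% of all genes tested, among them inducible subunits and activators. Psmb8, Psmb9 and Psmb10, the catalytic subunits of the immunoproteasome, rose by 3.95 ± 0.17, 3.92 ± 0.18 and 3.16 ± 0.10 on the log2 scale. Psme1 and Psme2, which form the activating cap, rose by 1.46 ± 0.07 and 2.01 ± 0.08, and the assembly factor Pomp by 0.38 ± 0.10. The call of Pomp was lost without Activin-A replicate 1 (adjusted p = 0.0704) and without replicate 3 of both factors (adjusted p = 0.0554). The constitutive counterparts Psmb5, Psmb6 and Psmb7 were at 0.24 ± 0.10, 0.10 ± 0.09 and 0.13 ± 0.12, none called. Of 4 tested MHC class II genes 0 were called, beside 6.07% of all genes tested, and so few genes cannot set the list apart from that share. H2-DMa, H2-DMb1, H2-DMb2 and Ctss were below the filter. Cd74, the invariant chain, was at -0.01 ± 0.09, and Ciita, the master regulator of class II, was below the filter with 3, 1, 1 and 0 counts in the Activin-A wells and 4, 5, 4 and 9 with both factors, a pooled ratio of 4.37 (95% counting interval 1.62 to 14.8). Without the filter Ciita was called (adjusted p = 0.0448), and under DESeq2 it was not (adjusted p = 0.221).

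Antiviral effectors rose in 25 of 29 tested genes and fell in none, beside 4.41% and 1.66% of all genes tested. Their median log2 fold change was 1.61. Samhd1, which depletes nucleotides, rose 5.24-fold from 59.9 ± 2.18 to 315 ± 13.9 CPM (SD, n = 4), Oasl2 of the oligoadenylate synthetase family 6.23-fold and Xaf1, a pro-apoptotic factor, 6.17-fold. Bst2, the tether of budding virus, rose 2.17-fold and Isg15, the ubiquitin-like modifier, 3.06-fold. Ifit2 (0.61 ± 0.22), Rsad2 (-0.49 ± 0.28), Oasl1 (0.20 ± 0.27) and Ifitm2 (0.01 ± 0.09) were not called. Mx1 and Mx2 were below the filter.

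Sensors of nucleic acid followed, with 11 of 14 higher, beside 4.41% of all genes tested. Zbp1, a sensor of Z-form nucleic acid that can start necroptosis, went from 5.28, 3.06, 5.28 and 6.37 CPM to 112, 97.9, 89.9 and 106 CPM (log2 fold change 4.24 ± 0.20, adjusted p = 1.35e-25). The Ifi200 genes Ifi203, Ifi204 and Ifi211, which bind DNA, rose by 3.71 ± 0.19, 2.42 ± 0.12 and 2.01 ± 0.15. Ddx58 (RIG-I) and Ifih1 (MDA5), the sensors of viral RNA, rose by 1.90 ± 0.18 and 1.86 ± 0.25. Tmem173 (STING), the adaptor of DNA sensing, rose 2.04-fold, from 70.0, 62.7, 67.8 and 46.4 CPM to 118, 127, 141 and 123 CPM (adjusted p = 1.95e-09). Its wells did not overlap. Mavs (0.00 ± 0.14) and Tbk1 (0.08 ± 0.21), which relay the signals of these sensors, were not called. Of the PARP, Trim and ISGylation genes 16 of 19 rose, with the ADP-ribosyltransferases Parp9 at 3.25 ± 0.14 and Parp14 at 2.95 ± 0.18, the ubiquitin ligase Dtx3l at 3.31 ± 0.16 and the ISG15-conjugating enzyme Ube2l6 at 2.11 ± 0.13.

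Of 14 tested chemokines and cytokines 8 rose and 1 fell, beside 4.41% and 1.66% of all genes tested. Cxcl10, a ligand of CXCR3 on T cells, went from 50.2, 52.0, 62.5 and 33.7 CPM to 228, 204, 222 and 217 CPM (log2 fold change 2.13 ± 0.11, adjusted p = 3.11e-23). Ccl2, which recruits monocytes, went from 58.7, 58.1, 60.7 and 61.9 CPM to 253, 236, 228 and 245 CPM (log2 fold change 2.0 ± 0.10, adjusted p = 3.93e-25). Cx3cl1, a membrane-bound chemokine, rose by 2.46 ± 0.15 and Il15, a growth factor of T and natural killer cells, by 2.84 ± 0.45. Cxcl9, which like Cxcl10 binds CXCR3, was at 0.38 ± 0.15 (adjusted p = 0.157) with overlapping wells, and Ccl5 at 0.15 ± 0.14. Il11, a cytokine of the interleukin-6 family, fell from 19.8, 21.4, 33.4 and 15.5 CPM to 12.7, 8.59, 7.65 and 10.8 CPM (log2 fold change -1.18 ± 0.28, adjusted p = 0.00310), and missed the threshold without Activin-A replicate 3 (adjusted p = 0.0632).

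At the cell surface, Cd274 (PD-L1), the ligand that restrains T cells, went from 2.64, 4.59, 5.28 and 5.46 CPM to 100.2, 99.6, 101 and 87.5 CPM, 21.9-fold (adjusted p = 2.98e-25). All wells with both factors lay far above the Activin-A wells. Of 11 tested checkpoint and adhesion genes 3 rose, beside 4.41% of all genes tested. Cd47, a signal against phagocytosis, rose 1.62-fold and Vcam1, an adhesion molecule, 1.38-fold. Pdcd1lg2 (PD-L2) was at -0.32 ± 0.29 and Icam1 at -0.29 ± 0.33, neither called. Of 22 tested cell death genes 9 rose and none fell, beside 4.41% and 1.66% of all genes tested. Casp4 (caspase-11), which drives pyroptosis, had 4, 2, 2 and 2 counts in the Activin-A wells and 16, 33, 21 and 27 with both factors, a pooled ratio of 9.64 (95% counting interval 5.03 to 20.7). Casp12 rose by 2.24 ± 0.19 and Mlkl, the executioner of necroptosis, by 1.36 ± 0.14. The regulators of apoptosis Bcl2 (-0.28 ± 0.22), Bcl2l1 (0.11 ± 0.10), Mcl1 (0.06 ± 0.09) and Bax (-0.16 ± 0.13) were not called.

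Lists that stand for other pathways are given beside the 6.07% called over all genes tested, with no test between lists. Of NF-κB genes 1 of 12 was called, Nfkb1 at 0.34 ± 0.11 (adjusted p = 0.0400), and of immediate-early and AP-1 genes 3 of 19, led by Zfp36, which destabilises cytokine mRNA, at 1.11 ± 0.14. Egr1 and Maff rose by 0.37 ± 0.10 and 0.42 ± 0.13, but like Nfkb1 they lost the call in at least 5 of 15 alternatives. Of 13 MAPK feedback genes Dusp6 rose by 0.51 ± 0.08, while Spry4 and Dusp5 fell by 0.51 ± 0.13 and 0.35 ± 0.09 on the log2 scale. Spry4 lost its call without Activin-A replicate 1 (adjusted p = 0.105). Of 20 cell cycle genes Top2a alone was called (0.23 ± 0.07, adjusted p = 0.0375), and it missed the threshold in 8 of 15 alternatives, DESeq2 among them (adjusted p = 0.0924). Among 14 p53 targets Txnip rose by 1.82 ± 0.25 and Sat1 by 0.55 ± 0.12. Gadd45a, a stress gene, fell from 121, 90.2, 111 and 129 CPM to 66.5, 68.7, 69.8 and 74.0 CPM (adjusted p = 5.34e-06). The cell cycle inhibitor Cdkn1a was at 0.02 ± 0.11 (adjusted p = 0.962). Serping1, the inhibitor of complement C1, rose by 2.06 ± 0.19 as 1 of 2 complement genes tested.

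**Figure D3:**
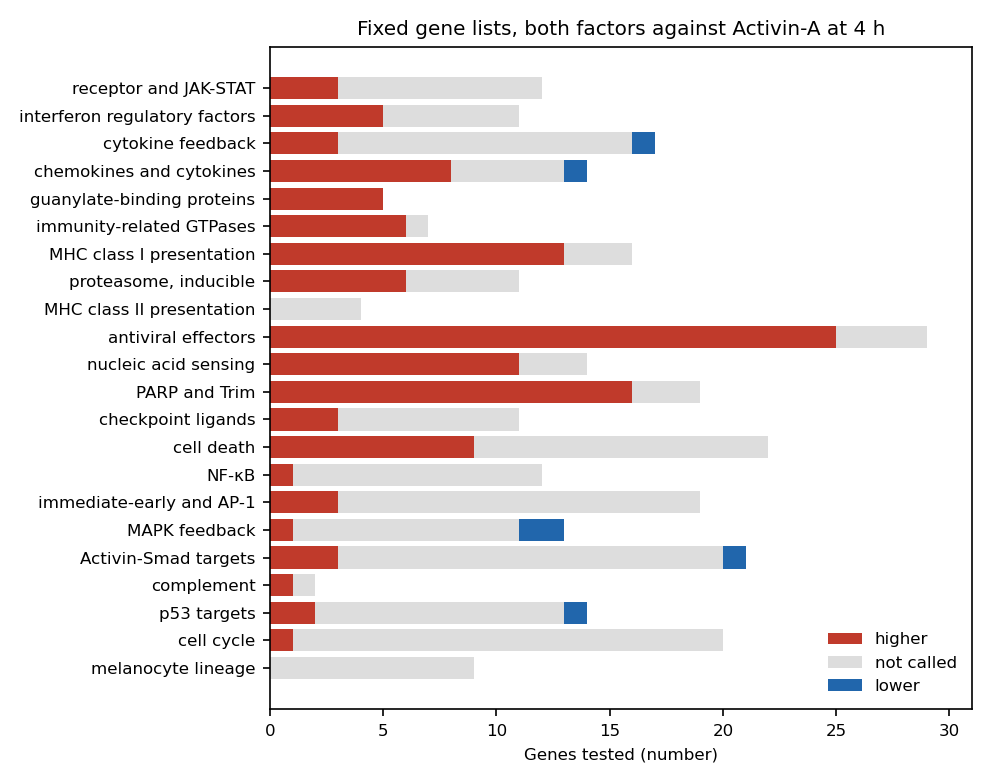
Number of genes tested in each fixed list (horizontal axis), split into genes higher with both factors than with Activin-A at 4 h (red), not called (grey) and lower (blue). Red fills most of the GTPase, MHC class I, antiviral, nucleic acid sensing and PARP bars, and the cell cycle, NF-κB and melanocyte bars are nearly all grey.

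Of 21 tested genes of the Activin-Smad list 3 rose and 1 fell, beside 4.41% and 1.66% of all genes tested. Fst, which encodes the Activin-A antagonist follistatin, stood at 483, 485, 462 and 381 CPM with Activin-A and 1503, 1604, 1479 and 1539 CPM with both factors, 3.39-fold (log2 fold change 1.76 ± 0.07, adjusted p = 4.09e-30). Fstl1 and Id3 rose by 0.52 ± 0.08 and 0.32 ± 0.08. Ccn2 (CTGF), a matricellular target of SMAD signalling, went from 301, 281, 236 and 247 CPM to 183, 197, 229.6 and 200.2 CPM (log2 fold change -0.40 ± 0.09, adjusted p = 0.00214). Without IFN-γ and without Activin-A the mean of Ccn2 was 78.2 CPM, and with IFN-γ alone 74.6 CPM. Smad7, the inhibitory SMAD, had means of 29.2 CPM untreated, 53.6 CPM with Activin-A, 31.4 CPM with IFN-γ and 39.9 CPM with both factors. The difference between both factors and Activin-A for Smad7 was -0.41 ± 0.15 (adjusted p = 0.106). Pmepa1, an inhibitor of SMAD signalling (-0.15 ± 0.08), Skil (-0.19 ± 0.20), Smad3 (-0.21 ± 0.14) and Inhba, which encodes the subunit of Activin-A (-0.09 ± 0.10), were not called.

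The fallen genes were smaller in change, and 146 of 152 were in no list. The lists hold only 378 of the 12451 genes in the table, so this count says little about the fallen genes. The 12 with the lowest log2 fold change among those with at least 10 counts on average and wells that did not overlap ran from -1.49 to -0.93. Pkp1, which encodes the desmosomal plakophilin-1, went from 19.1, 30.6, 15.8 and 20.9 CPM to 8.44, 7.73, 6.70 and 6.31 CPM (adjusted p = 3.27e-04). Jag1, a Notch ligand, went from 38.3, 48.9, 44.0 and 39.1 CPM to 15.8, 11.2, 25.8 and 24.4 CPM (log2 fold change -1.11 ± 0.22, adjusted p = 1.82e-04). Adgre5 (CD97), an adhesion receptor, was at -1.26 ± 0.27 and Pde1b, a phosphodiesterase, at -1.02 ± 0.24. Ccdc88c (-1.11 ± 0.35), the histone deacetylase Hdac9 (-1.06 ± 0.32), the transporter Slc43a2 (-1.0 ± 0.28), the protocadherin Pcdh8 (-0.99 ± 0.27), Zfp469 (-0.96 ± 0.27) and the growth factor Fgf2 (-0.93 ± 0.30) had adjusted p from 0.0138 to 0.0498 and none passed under DESeq2. Each of these 6 also lost its call in 2 to 7 of the 8 fits without 1 well of either group, where the adjusted p reached 0.223 for Ccdc88c without Activin-A replicate 1, 0.118 for Hdac9 without Activin-A replicate 3, 0.169 for Slc43a2 without replicate 2 of both factors, 0.0942 for Pcdh8 without Activin-A replicate 1, 0.0794 for Zfp469 without replicate 1 of both factors and 0.164 for Fgf2 without Activin-A replicate 4. The fallen genes together took 5.22% of the counts in Activin-A replicate 1, 4.36% to 4.67% in the other Activin-A wells and 3.49% to 3.69% with both factors. Of 6 mitochondrial genes tested, mt-Nd1 (-0.26 ± 0.08) and mt-Cytb (-0.25 ± 0.07) were lower, beside 1.66% of all genes tested, and the other 4 were not called. The mitochondrial share was highest in the same well, and neither gene passed without it (adjusted p = 0.525 and 0.260). Both also lost the call without replicate 4 of both factors (adjusted p = 0.144 and 0.0798). The same held with only the wells compared (adjusted p = 0.122 and 0.0766) and under DESeq2 (adjusted p = 0.569 and 0.335). The part of Activin-A replicate 1 in the other fallen genes was not tested beyond leaving it out.

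For some of the 12 the mean was higher with Activin-A than in untreated wells and lay in between with both factors. Zfp469 stood at 4.48 CPM untreated, 22.8 CPM with Activin-A, 4.78 CPM with IFN-γ and 11.1 CPM with both. Fgf2 stood at 4.76, 18.9, 2.84 and 9.79 CPM in the same order. Slc43a2 stood at 7.56, 21.2, 4.28 and 10.5 CPM. For others the untreated and Activin-A means were alike, at 19.6 and 22.5 CPM for Il11, 14.8 and 14 CPM for Hdac9 and 17.3 and 19.3 CPM for Pcdh8. The Activin-A wells enter both sides of such a reading, so a high Activin-A value raises both differences at once.

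Of the 403 risen genes 124 were in a fixed list and 279 in none, where the lists hold 378 of the 12451 genes in the table. The following DEGs from outside the lists were chosen after their values were seen. Wars, the tryptophanyl-tRNA synthetase, went from 82.5, 71.9, 67.8 and 54.6 CPM to 864, 842, 714 and 785 CPM (log2 fold change 3.52 ± 0.09, adjusted p = 2.40e-38). Ly6c1, a surface protein of the Ly6 family, had 1, 5, 3 and 1 counts in the Activin-A wells and 48, 55, 52 and 54 with both factors, a pooled ratio of 20.8 (95% counting interval 11.1 to 44.0). Nod1, a sensor of bacterial cell walls, had 1, 1, 1 and 3 counts against 18, 12, 17 and 18, a pooled ratio of 10.8 (95% counting interval 4.69 to 30.4). Il15ra, which presents interleukin-15, and Tgm2, a transglutaminase, rose by 3.79 ± 0.41 and 3.75 ± 0.50, also from low counts. The IRG-related Gm4841 and Gm4951 had 1 and 2 counts in the Activin-A wells together, against 22, 17, 10 and 17 and 8, 11, 19 and 21 with both factors. Tcf7, a transcription factor of the Wnt pathway, and Tubb3, a neuronal tubulin, rose 4.64-fold and 5.11-fold, with adjusted p of 4.86e-26 and 1.88e-24. Crem, a cAMP-responsive factor, rose by 2.38 ± 0.21, and Cebpd and Cebpb, CCAAT-binding factors of inflammation, by 1.70 ± 0.18 and 1.0 ± 0.09. Hk2, a glycolytic kinase, Nampt, an enzyme of NAD synthesis, and Cdk6, a kinase of the G1 phase, rose 2.69-fold, 2.22-fold and 2.40-fold. Mt2, a metallothionein, rose 2.11-fold and Bcl6, a transcriptional repressor, 2.66-fold. Il13ra1, a receptor subunit of interleukin-13, rose by 1.72 ± 0.36. Inhbb, which encodes the subunit of Activin-B, rose by 1.64 ± 0.36 at low counts (1.98, 9.18, 4.40 and 6.37 CPM against 10.6, 12.9, 15.3 and 21.6 CPM). Notch1 rose by 1.17 ± 0.23, while Hes1, a classical Notch target, fell by 0.69 ± 0.13 on the log2 scale, from 112, 85.6, 103 and 123 CPM to 70.7, 42.9, 70.8 and 83.0 CPM (adjusted p = 8.12e-05). Dmp1, an acidic matrix protein of bone and teeth, fell 1.84-fold (adjusted p = 1.21e-10), Flt1, a receptor of VEGF, 1.48-fold and Spp1, the matrix protein osteopontin, 1.22-fold. Plat, the tissue plasminogen activator, went from 52.8, 39.8, 52.8 and 52.8 CPM to 15.8, 28.3, 29.7 and 39.7 CPM (adjusted p = 8.15e-04), and Ezh2, a histone methyltransferase, from 83.8, 94.8, 92.4 and 96.4 CPM to 58.0, 61.8, 67.9 and 68.6 CPM (adjusted p = 0.00213).

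Some risen genes lay next to each other, and how many of the 9013 tested genes with a place would do so by chance was not worked out. Ordered along the RefSeq genome with genes not tested left out, 113 of the 401 risen genes with a place sat in 44 runs of at least 2, and 55 of them in 15 runs of at least 3. The longest run, of 6 genes, was Irgm1, Gm12185, Psme2b, Tgtp1, Tgtp2 and Ifi47. Others were Psmb9, Tap1, Psmb8 and Tap2 in the MHC, the cluster of Ifi204, Mndal, Ifi211, Ifi203 and Ifi205, the cluster of Oas2, Oas3, Oas1b and Oas1a, the trio Gbp7, Gbp3 and Gbp2 and the trio Parp14, Dtx3l and Parp9. Several of these runs hold copies of a gene family, to which the caution on shared reads applies, while others join unrelated genes, such as Dusp6 and Kitl or Socs3 and Pgs1.

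The same 4 h of IFN-γ without Activin-A was measured in wells that share no sample with those above. There 462 of 9137 genes were called (5.06%), 392 higher and 70 lower. Genes called higher in each comparison numbered 314, 77.9% of those with Activin-A and 80.1% of those without. Of the 403 genes risen with Activin-A, 395 had a positive log2 fold change without it, at a median of 0.91 against 0.90. Over all 9137 genes tested, 4431 had a positive and 4706 a negative log2 fold change without Activin-A. Of the 314 shared genes, 278 differed by less than 0.5 between the log2 fold changes and 6 by at least 1. The log2 fold change was higher with Activin-A for 127 of the 314 and lower for 187, a count that was not tested. Genes called lower in each numbered 36, which is 23.7% and 51.4%. Of the 152 genes fallen with Activin-A, 135 had a negative log2 fold change without it, at a median of -0.26 against -0.50, the larger value being the one that chose them.

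The test of the difference itself, (both minus Activin-A) minus (IFN-γ minus untreated) over 16 wells, called no gene in edgeR, where 505 genes had an unadjusted p under 0.05, and none in DESeq2, where 277 did. For the central genes the 95% intervals of that difference on the log2 scale were -0.70 to 0.45 for Stat2, -0.12 to 0.49 for Irf1, -0.31 to 0.35 for Socs1, -0.63 to 1.05 for Cd274, -0.45 to 0.05 for Gbp2, -0.15 to 0.12 for B2m and -0.48 to 0.22 for Tmem173. Of these 7 intervals, all of which span 0, that of Cd274 was the widest and that of B2m the narrowest. They were picked from the named genes and, like the SE they rest on, are approximate. Intervals below 0, unadjusted for the number of genes, were those of Socs3 (-0.80 to -0.02), Usp18 (-1.03 to -0.06), Samhd1 (-0.65 to -0.06), Ly6a (-0.65 to -0.02) and Gbp4 (-2.82 to -0.04) among the named genes that rose, with adjusted p of 0.838 or higher. The intervals of the risen Nfkb1 (0.02 to 0.61) and Egr1 (0.04 to 0.61) lay above 0, with adjusted p of 0.865 or higher. Among named genes that did not rise, intervals below 0 included those of Smad7 (-0.99 to -0.05), Ccn2 (-0.66 to -0.01) and Gadd45a (-0.79 to -0.10). Their adjusted p were 0.865, 0.890 and 0.824. Those of Ptms, Qdpr and Hsd17b7 lay above 0. Fst had the lowest p, with a log2 fold change of 1.76 ± 0.07 with Activin-A and 1.34 ± 0.07 without, a difference of 0.42 ± 0.09 (unadjusted p = 3.04e-05, adjusted p = 0.278). Its level was 709, 602, 672 and 715 CPM in untreated wells and 1652, 1648, 1697 and 1825 CPM with IFN-γ alone. The Activin-A wells were the lowest of the 4 groups at 381 to 485 CPM. Fst was called when all 32 wells were fitted, when no filter on low counts was used and when Activin-A replicate 1 was left out, and in no other alternative. The others among the 10 lowest p were Bnip3, a mitophagy receptor, at a difference of 0.52 ± 0.14, Itga5, the fibronectin receptor subunit, at -0.48 ± 0.13, and Ap2a1, Ptms, Qdpr, Micall2, Hsd17b7, Ypel5 and Wdr37, at -1.16 to 1.04.

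**Figure D4:**
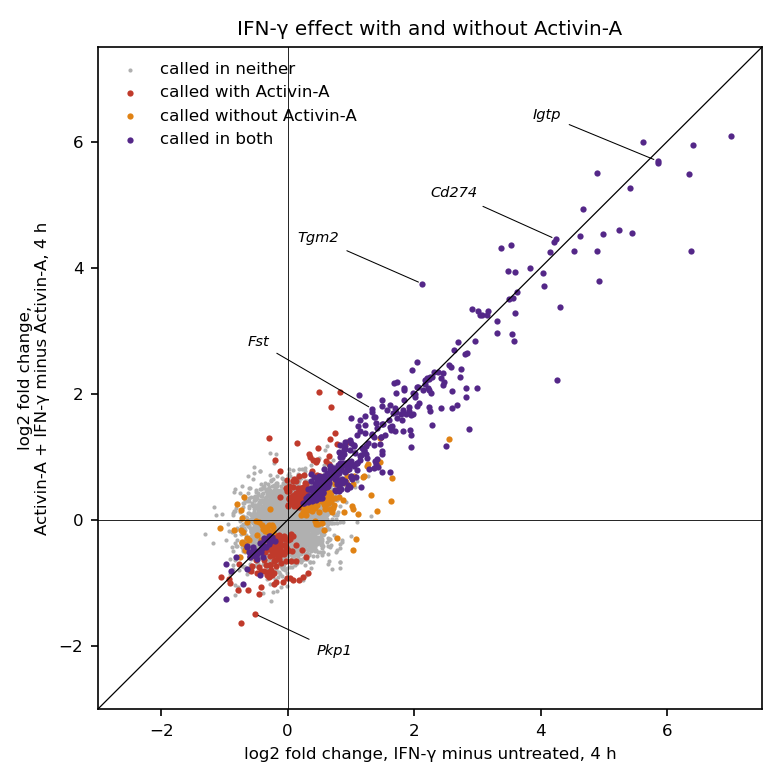
Log2 fold change of both factors minus Activin-A (vertical axis) against that of IFN-γ minus untreated (horizontal axis) at 4 h for each of 9137 genes, coloured by the comparisons in which a gene was called, with the line of equal change in black. Points called in both, 314 of them higher and 36 lower, spread along the line, and no gene passed the test of a difference.

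At 12 h the same comparison called 863 of 8971 genes (9.62%), 554 higher and 309 lower. Of the 403 genes risen at 4 h 323 (80.1%) were again higher, and they made up 58.3% of those higher at 12 h. Of the 152 fallen genes 56 (36.8%) were again lower, 18.1% of those lower at 12 h, and 1 gene, Anxa2, was higher at 4 h and lower at 12 h. Anxa2, a membrane-binding annexin named after its values were seen, was at 0.46 ± 0.11 and -0.18 ± 0.06, and DESeq2 did not call it at 4 h (adjusted p = 0.346). The test of 12 h against 4 h over all 32 wells called 61 of 9332 genes (0.654%), 33 with a more positive and 28 with a more negative log2 fold change at 12 h. Of the 33, 23 had already risen at 4 h, while of the 28, 21 were not called at 4 h.

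Genes of antigen presentation were among those with the larger change at 12 h. Of the 16 MHC class I genes 6 passed this test and of 11 proteasome genes 3, beside 0.654% of all genes tested. H2-K1 stood at 222, 199, 177 and 216 CPM with Activin-A and 403, 375, 376 and 367 CPM with both factors at 4 h, and at 177, 177, 190.3 and 195 CPM and 970.1, 1050.0, 1004 and 1003 CPM at 12 h. Its log2 fold change was 0.90 ± 0.08 at 4 h and 2.45 ± 0.07 at 12 h, a difference of 1.56 ± 0.10 (adjusted p = 2.83e-21). The heavy chain H2-D1 went from 0.80 ± 0.07 to 1.99 ± 0.07, B2m from 0.67 ± 0.05 to 1.36 ± 0.05 and Tapbp from 1.74 ± 0.10 to 2.96 ± 0.08. Ly6a (Sca-1), a surface marker of interferon exposure, went from 2.97 ± 0.10 to 4.74 ± 0.10, Ccl2 from 2.0 ± 0.10 to 3.35 ± 0.11, Psme1 from 1.46 ± 0.07 to 2.21 ± 0.07, Psme2 from 2.01 ± 0.08 to 2.78 ± 0.07 and Bst2 from 1.11 ± 0.08 to 2.0 ± 0.08. The antiviral genes Ifitm3 and Ifit1 went from 1.05 ± 0.07 and 0.60 ± 0.14 to 1.52 ± 0.06 and 1.69 ± 0.14. By contrast, Stat2 was at 2.43 ± 0.17, Irf1 at 3.96 ± 0.09, Igtp at 5.39 ± 0.10, Cd274 at 4.56 ± 0.25 and Socs1 at 2.25 ± 0.14 at 12 h, with differences from 4 h of 0.10, -0.44, -0.30, 0.11 and -0.01 and adjusted p from 0.231 upward. Sparc, a matrix protein, was at -0.04 ± 0.05 at 4 h and -0.55 ± 0.05 at 12 h (adjusted p of the difference 1.61e-07). Prss23, a secreted serine protease, was at 0.46 ± 0.16 and -1.24 ± 0.18 (adjusted p of the difference 3.70e-07). Pmepa1, not called at 4 h, was at -1.24 ± 0.14 at 12 h (adjusted p of the difference 8.02e-06).

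**Figure D5:**
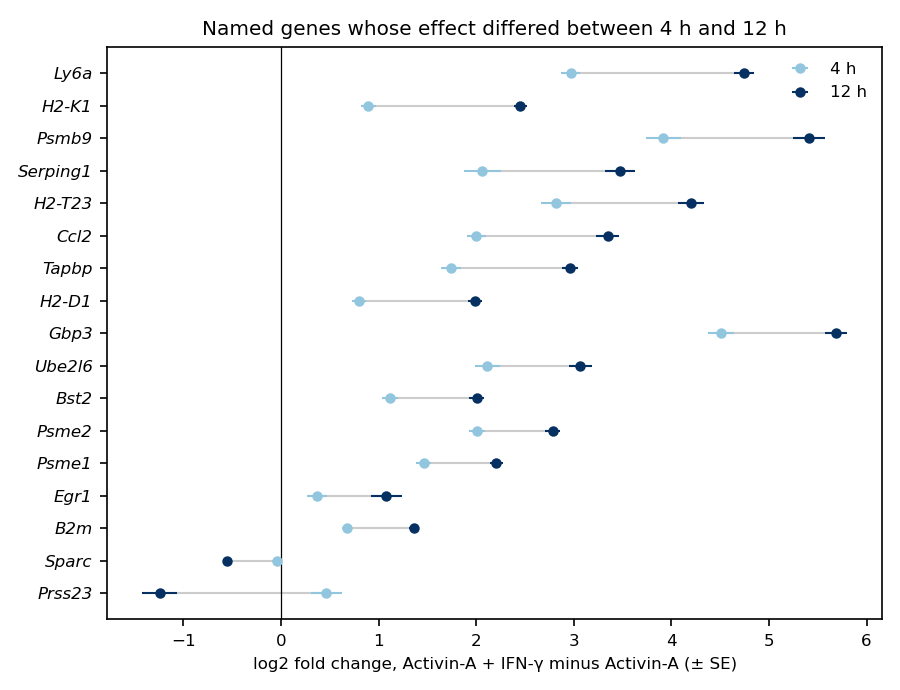
Log2 fold change of both factors minus Activin-A with its SE (horizontal axis) at 4 h (light points) and 12 h (dark points) for the 17 genes that the rule for named genes holds and that passed the test of 12 h against 4 h. The dark point lies to the right of the light one for 15 genes, among them H2-K1 and B2m, and to the left for Sparc and Prss23.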

How the data were processed

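The deposited table holds whole-number read counts per gene for 32 wells, made by the authors from pooled BRB-seq libraries of YUMM3.3 cells. The submitters' processing notes name STAR 2.7.10b, featureCounts, DESeq2 1.36.0 and the build GRCm39. The annotation, and how strand and molecular identifiers were treated, are not given in the sources used here, so counts may include copies from amplification. Of 12451 genes, 12437 were matched to a symbol. Groups were taken from the sample titles. Counts were analysed in edgeR 4.0.16 (R 4.3.3) with TMM scaling, filterByExpr and the quasi-likelihood test over the 16 wells at 4 h, the 4 groups sharing 1 estimate of spread, and p-values were adjusted by Benjamini-Hochberg over all genes tested, with calls at 0.05. The test of Activin-A on the IFN-γ effect was a contrast of the same fit, and that of 12 h against 4 h used all 32 wells. CPM values are counts per 1000000 counts of the TMM-scaled library. Errors are SD for CPM. For log2 fold changes the error called SE is the size of the change divided by the square root of the F statistic. It is an approximation, not a standard error taken from the fit, and can be too small for large changes and for changes near 0. For Cd274 it was 0.214 with Activin-A and 0.209 without, but 0.429 for the difference between them. The 95% intervals of a difference between log2 fold changes are built from it. Ratios of pooled counts carry exact 95% intervals. The fits were tested on simulated counts. DESeq2 1.42.0, RLE scaling, other filters, other sets of wells, a replicate block and fits without each well were alternatives.

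The comparison, the gene lists and the tests were chosen with earlier results of these data known. Named were the 12 highest and 12 lowest log2 fold changes among called genes with at least 10 counts on average and no overlap of wells, up to 4 called members per list by adjusted p, a fixed set of regulators whatever they showed, and up to 10 genes with the lowest adjusted p in each test of a difference. Further list members, and the genes said to be chosen after their values were seen, were added to describe a group. Same-numbered wells did not deviate together (mean r -0.0027 against 0.0009 for other wells of different groups), so the numbers were not taken as pairs. Some genes are not reported here.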

Additional observations from a re-analysis of the deposited data

Results flagged for a closer look

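In groups of 4 wells at 4 h, 16 of 346 (4.62%) had 1 well far from the others by Dixon's test at its 95% level, where chance gives about 1 in 20. Of these wells 7 were Activin-A replicate 1. It was highest for mt-Nd1 at 9885 CPM, mt-Cytb at 5727 CPM, Socs2 at 32.3 CPM, Tcf7 at 70.0 CPM and Gm4951 at 1.32 CPM, and lowest for Maff at 44.2 CPM and Pomp at 149 CPM. Activin-A replicate 2 was highest for Gm4841 at 1.53 CPM and lowest for Plat at 39.8 CPM. Activin-A replicate 4 was lowest for Ifit2 at 10.9 CPM and Cdk6 at 61.9 CPM. With both factors, replicate 4 was lowest for Cd274 at 87.5 CPM and highest for Ciita at 8.12 CPM, replicate 3 was lowest for Psmb10 at 328 CPM and highest for Cdk6 at 198 CPM, and replicate 2 was lowest for Il13ra1 at 8.59 CPM. The values for Ciita, Gm4841 and Gm4951 stand for a few counts each.

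The response of 22 named genes to IFN-γ with Activin-A differed between 12 h and 4 h by edgeR's test of that difference. For MHC class I genes the log2 fold change was larger at 12 h by 1.56 for H2-K1, 1.18 for H2-D1, 1.39 for H2-T23, 0.88 for H2-T22, 0.69 for B2m and 1.22 for Tapbp. For proteasome genes it was larger by 1.5 for Psmb9, 0.75 for Psme1 and 0.77 for Psme2. Among antiviral genes it was larger by 0.89 for Bst2, 0.47 for Ifitm3 and 1.08 for Ifit1, and the ISGylation enzyme Ube2l6 had a difference of 0.96. Ly6a had a difference of 1.78, Ccl2 of 1.35, Gbp3 of 1.18, Serping1 of 1.41 and Egr1 of 0.72. The difference was negative for Sparc at -0.50, Anxa2 at -0.63, Pmepa1 at -1.09 and Prss23 at -1.71.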

How the results depend on the processing

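Under the alternatives the number of genes that changed with both factors against Activin-A at 4 h lay between 380 (DESeq2) and 617 (all 32 wells), apart from stricter thresholds. No named gene changed direction with a call. The fallen genes were the less stable side. They numbered 61 under DESeq2, of which 60 were among the 152, and 61 at an adjusted p under 0.01. Requiring a log2 fold change of at least 1 in size left 196 genes, 187 higher and 9 lower. Leaving out 1 well at a time gave 462 to 537 genes, 365 to 388 higher and 97 to 149 lower, with the lowest counts of fallen genes without replicates 2 and 4 of both factors. The share of higher genes was 72.6%, and 83.9% under DESeq2. The replicate block, which no label supports as a pairing, gave 530 genes (397 higher, 133 lower), 0 for the difference with Activin-A and 61 for the difference between times. The test of that difference with Activin-A called 1 gene, Fst, without a filter on low counts, 1 with all 32 wells, and 0 to 1 without 1 well. For 12 h against 4 h the 61 genes became 39 (21 and 18) at an adjusted p under 0.01, 18 (11 and 7) with a difference of at least 1 in size, and 50 to 72 (25 to 42 and 23 to 33) without 1 well. Of 132 named genes called, 111 were called under each of the 15 alternatives in which they were tested. Of 40 not called, 3 (Ifngr2, Ptms and Prss23) were called under at least 1. Ciita, not tested above, was called without a filter on low counts (adjusted p = 0.0448). The cause of these changes was not tested. Genes near the floor of 3 counts (2.06 to 4.58 CPM) have poorly fixed folds.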
